A study of Mus musculus with 37 samples.

Results

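The cells described here fall on either side of a measured level of Emr1, the transcript of the macrophage surface protein F4/80. Of 37 single cells sorted from adipose tissue, 25 were members. They comprised 8 cells with Emr1 below 10 FPKM, called Emr1-low, and 17 cells with Emr1 at 70 FPKM or more, called Emr1-high. FPKM are fragment numbers corrected for transcript length and for the total mapped. The 10 cells between these limits were left out of the comparison, and so were cells 7 and 27, which hold fibroblast genes. Members were therefore selected on their own Emr1 values, and Emr1 itself is given as a description. The sides were set on the transcript and not by the sort or by F4/80 protein.

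F4/80, encoded by Emr1 (now Adgre1), is an adhesion G protein-coupled receptor with an extracellular stalk of EGF-like repeats. It is the classical surface marker of mouse tissue macrophages, whereas monocytes and dendritic cells carry less of it or none. Adipose tissue macrophages take up lipid from dying and overfilled adipocytes, and in obesity they include lipid-loaded cells with active lysosomes that express Trem2. Resident, perivascular macrophages of the same tissue express Mrc1 (CD206) and Sepp1 (selenoprotein P).

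All cells came from the epididymal white fat of age-matched male C57BL/6J mice whose age in weeks the labels do not state. The mice ate a high-fat diet that drew 60% of its calories from fat and 20% each from carbohydrate and protein. The fat was minced and digested with collagenase for 30 min, and sorted cells were captured singly on a Fluidigm C1 and sequenced as polyadenylated RNA from Nextera XT libraries. The labels do not state the sort gate, and the labels tie no cell to an animal. Both sides thus share diet, strain, tissue and labels and together form 1 group, and whether they differ in animal cannot be told. Cells are not replicates, so a difference below carries no test, SD is the spread over cells, and each cell is named by its number in the labels.

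Emr1 spanned several orders of magnitude over the cells. In the Emr1-low cells it ran from 0.126 FPKM in cell 18 through a median of 2.71 to 8.09 FPKM in cell 25, and cells 9 and 26 stood at 0.392 and 0.452 FPKM. The Emr1-high cells ran from 74.0 FPKM in cell 32 through a median of 286 to 1470 FPKM in cell 2. Just outside the limits lay cell 16 at 14.5 FPKM and cell 34 at 69.5 FPKM, so the upper limit divides neighbours that hardly differ. Cells 7 and 27, the ones with fibroblast genes, held 0.477 and 1.70 FPKM. The 3 lowest Emr1-low cells were thus at or below the level found in cells with another cell type's genes. Emr1 was at 1 FPKM or more, here called detected, in 5 of the 8 Emr1-low cells.

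**Figure D1:**
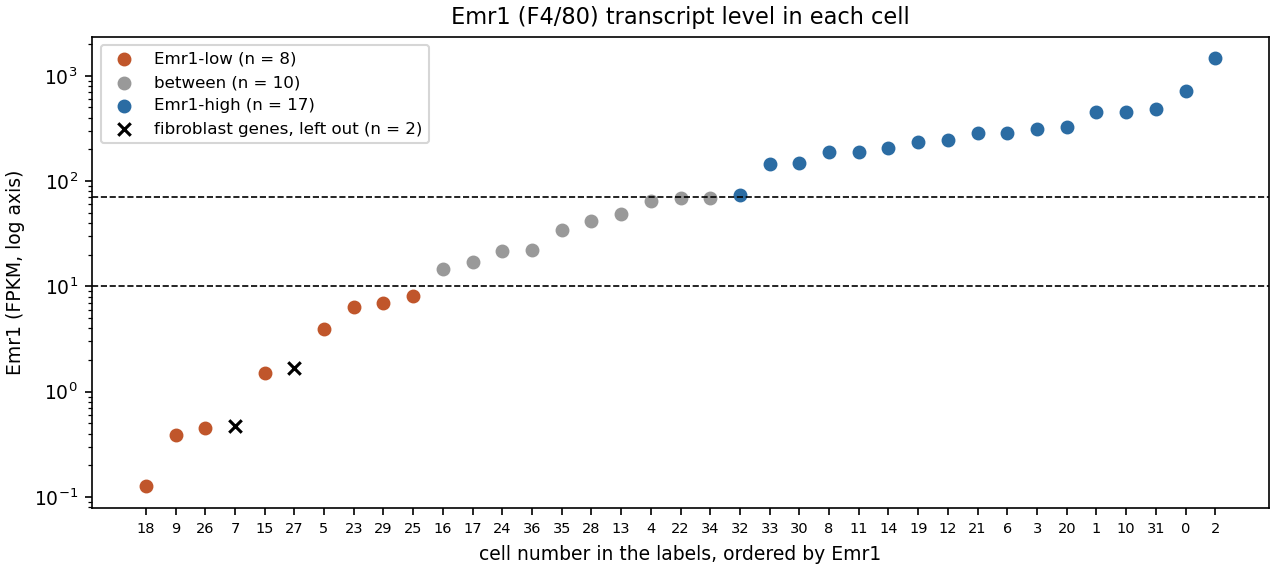
Emr1 in FPKM on a log axis for each of the 37 cells, ordered by level; dashed lines mark 10 and 70 FPKM. The 8 Emr1-low cells lie between 0.126 and 8.09 FPKM, the 17 Emr1-high cells between 74.0 and 1470 FPKM, and the 10 cells between fill the range from 14.5 to 69.5 FPKM.

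The Emr1-low cells carried general macrophage transcripts, though cell 18 lacked some of them. Tyrobp, the adaptor of many myeloid receptors, was at 454 FPKM or more in all 8 Emr1-low cells and at 321 FPKM or more in all 17 Emr1-high cells. C1qb, a chain of complement C1q, had medians of 5112 FPKM in Emr1-low and 3276 FPKM in Emr1-high cells, and Csf1r, the receptor for the macrophage growth factor, medians of 77.1 and 96.0 FPKM. Cell 18, the lowest in Emr1, had C1qb at 4.62 FPKM and Csf1r at 0.390 FPKM, but Tyrobp at 2302, the lysozyme gene Lyz2 at 2259 and Cd68 at 1127 FPKM. The leukocyte marker Ptprc was below 1 FPKM in Emr1-low cells 18 and 26 and in Emr1-high cells 8 and 32. Batf3, a transcription factor of conventional dendritic cells that macrophages can express, was at 843 FPKM in cell 18 and 152 FPKM in Emr1-low cell 25, and reached 415 FPKM in the Emr1-high cells. Cell 18 also held 118 FPKM of Cd209a, a lectin found on dendritic cells. Cd209a reached 531 FPKM in Emr1-low cell 29 and no more than 1.41 FPKM in any Emr1-high cell.

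Of the dendritic cell markers, Flt3, Xcr1, Clec9a and Ccr7 were listed at 0 in all 25 cells, and Zbtb46 reached at most 0.0378 FPKM. In all, 11 of the 14 dendritic cell genes were below 1 FPKM in all 25 cells, and 6 were listed at 0 in all of them. Zeros were common: of 23947 genes in all, 10585 besides Emr1 were above 0 in at least 1 of the 25 cells. The share of all genes below 1 FPKM throughout was not computed, so these absences are a description. The summed level of the 14 dendritic cell genes ran from 0.0462 through 33.6 (median) to 961 FPKM in Emr1-low cells. In Emr1-high cells it ran from 0 through 2.64 to 416 FPKM. The T cell gene Cd3e, the B cell gene Cd79a, the adipocyte gene Adipoq and the eosinophil gene Ccr3 were listed at 0 in every member, and the fibroblast gene Col1a1 reached 0.302 FPKM. Single members of several of these lists were high in single cells. The highest summed level in an Emr1-low and in an Emr1-high cell was 501 and 55.4 FPKM for neutrophil genes, 233 and 74.5 FPKM for NK cell and ILC genes, and 126 and 467 FPKM for T cell genes. It was 0 and 149 FPKM for B cell genes and 0.135 and 299 FPKM for adipocyte genes. No cell had more than 2 genes of any of these lists detected. Ly6c2, which marks classical monocytes, was also listed at 0 throughout. What part the dendritic cell genes of cell 18 have in the differences below was not tested beyond leaving out that cell, after which 205 genes were higher and 105 lower by the rule given next.

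Of 4368 genes detected in at least 5 of the 35 cells, Emr1 aside, 197 (4.51%) were higher in Emr1-high cells by 2 or more on the log2(FPKM + 1) scale and 80 (1.83%) were lower. This limit corresponds to 4 times the level in (FPKM + 1). Among the 2180 genes detected in at least 10 cells, 194 were higher and 65 lower. Counts for the gene lists below are to be read beside these shares, and whether a list departs from them was not tested. No gene other than Emr1 separated the sides without overlap. Of the 197 higher genes, 29 stayed below 1 FPKM in every Emr1-low cell, while 18 were detected in every Emr1-high cell. With 8 Emr1-low cells, a count of 0 still allows a share of up to about 37.5% of such cells, by the approximate rule of 3 divided by the number of cells. Among the 80 lower genes, 16 were detected in every Emr1-low cell and 1 in no Emr1-high cell. The same counts were not made over all 4368 genes, so these are a description and no trait of the genes past the limit. The filter counted the cells between as well. A gene detected in none of those needed 5 of 8 cells to be compared if found in Emr1-low cells alone. If found in Emr1-high cells alone, it needed 5 of 17.

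The balance of these counts moved with scaling. The median difference over all 4368 genes was 0.27, with 61.3% of genes above 0. At an equal FPKM sum per cell, 243 genes were higher and 46 lower (84.1% higher, against 71.1% of those called without scaling), and the median difference was 0.37. Under median-ratio scaling the counts were 120 and 97 (55.3%, median 0.16), and centred on widely detected genes they were 135 and 120 (52.9%, median 0.04). The Emr1-high cells also held more detected genes, 1330 to 2536 per cell with a median of 2060, against 1224 to 1824 with a median of 1628 in Emr1-low cells. When only the 7 Emr1-high cells with no more genes than the richest Emr1-low cell were kept, 185 genes were higher and 194 lower, with a median difference of 0.00. Of 88 genes past 2 that were followed, 55 were past 2 in that comparison and 53 in cells 20 to 36 alone. Beyond this, the part of gene number in the results was not tested. Cells in which the value of 1 fragment was more than 4 times the median, called shallow, numbered 2 on each side (cells 15 and 26, and cells 2 and 11).

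**Figure D2:**
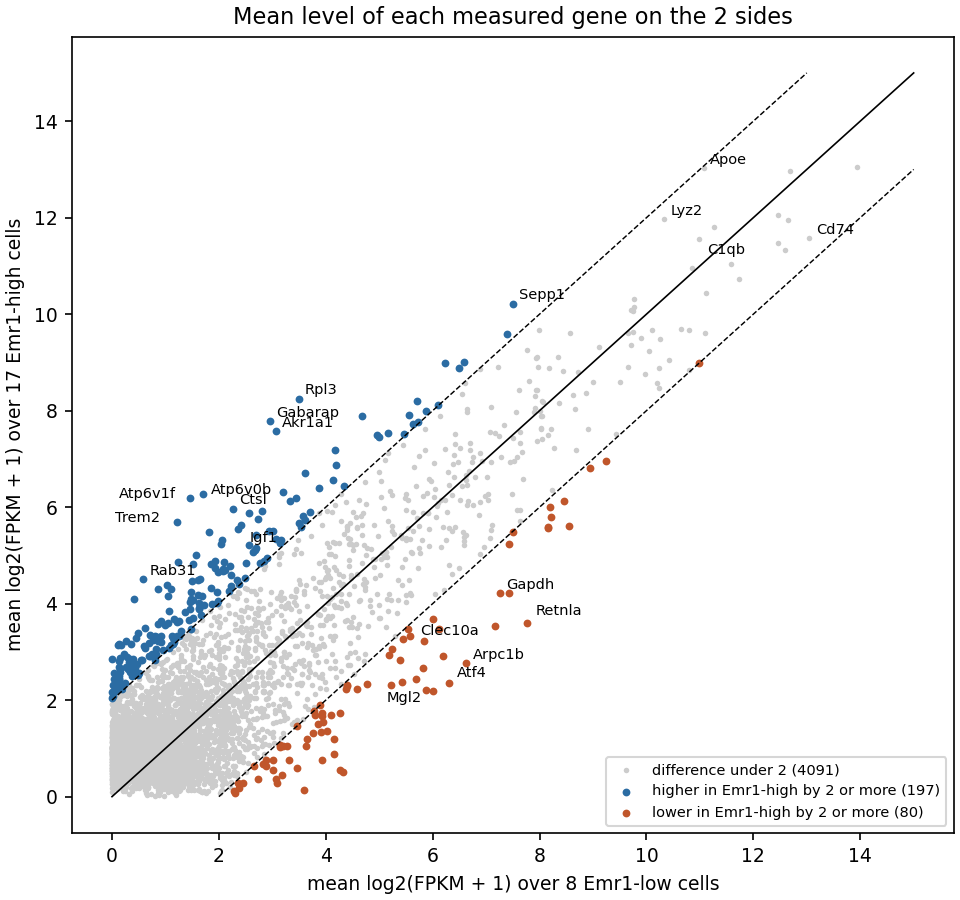
Mean log2(FPKM + 1) of each of 4368 genes over the 8 Emr1-low cells (horizontal) and the 17 Emr1-high cells (vertical); the solid line marks equality, dashed lines a difference of 2. The 197 higher genes lie mostly at low means in Emr1-low cells, and abundant genes such as Apoe and Cd74 lie within the dashed lines.

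Genes of autophagy and of lysosomal acidification held 3 of the 4 largest positive differences. Gabarap, which tethers cargo and fusion factors to autophagosomes, was at 0 (cell 15), a median of 1.09 and 944 FPKM (cell 25) in Emr1-low cells, and at 23.9, 229 and 996 FPKM (lowest, median, highest) in Emr1-high cells. Gabarap thus lay at 10 FPKM or more in all 17 Emr1-high cells and in 2 of 8 Emr1-low cells, cells 29 and 25. Its mean log2(FPKM + 1) was 2.96 ± 3.79 (SD, n = 8 cells) in Emr1-low and 7.79 ± 1.61 (SD, n = 17 cells) in Emr1-high cells, a difference of 4.83. Map1lc3b, the lipidated marker protein of autophagosomes, and Sqstm1, an adaptor for ubiquitinated cargo, differed by 3.32 and 2.39. Of 9 measured autophagy membrane genes, these 3 were higher by 2 or more, against 4.51% of all genes, and none was lower. The list's median difference was 0.75, against 0.27 over all genes. That median was 0.50 without cell 30, 1.32 without cell 29 and 0.00 when medians over cells were compared.

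The vacuolar proton pump acidifies lysosomes through a membrane sector and a cytosolic sector. Atp6v1f, a subunit of the cytosolic sector, ran from 0 through 1.33 to 23.3 FPKM in Emr1-low cells and from 0 through 188 to 2860 FPKM in Emr1-high cells, a difference of 4.73 on the log2 scale. In 10 of 17 Emr1-high cells Atp6v1f lay above the highest Emr1-low cell. Atp6v0b, a subunit of the membrane ring, ran from 0.392 through 1.97 to 14.5 FPKM in Emr1-low cells and from 1.05 through 159 to 1480 FPKM in Emr1-high cells, a difference of 4.57, and 12 of 17 Emr1-high cells lay above every Emr1-low cell. Atp6v1b2, from the nucleotide-binding head, and Atp6v0d2, a membrane-sector subunit of osteoclasts and lipid-loaded macrophages, differed by 3.19 and 2.91. Not all subunits went this way: Atp6v0e was lower by 2.60, with medians of 585 and 83.8 FPKM, and the proteolipid Atp6v0c differed by -0.34. Of 17 measured subunits, 4 were higher by 2 or more and 1 was lower, against 4.51% and 1.83% of all genes. Their median difference was 1.05, and 0.48 with the Emr1-high cells limited by gene number. The proton pump and autophagy lists were drawn up after the differences had been seen.

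The promoter of Atp6v0b is shown because it holds the palindrome CACGTG, the core of the CLEAR element bound by TFEB-family factors at lysosomal genes, at 2 places, with first bases 36 and 18 bases before the start site. It lies at chr4:117887280-117887579 of GRCm38.p6 on the minus strand (RefSeq), from 250 bases before to 50 bases after the annotated start, and capitals mark CACGTG.
Atp6v0b promoter: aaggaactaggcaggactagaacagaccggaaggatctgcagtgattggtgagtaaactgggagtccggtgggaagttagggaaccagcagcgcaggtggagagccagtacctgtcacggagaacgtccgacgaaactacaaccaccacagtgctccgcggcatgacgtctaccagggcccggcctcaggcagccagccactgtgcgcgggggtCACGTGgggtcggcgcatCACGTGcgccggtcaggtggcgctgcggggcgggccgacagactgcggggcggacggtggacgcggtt

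Lysosomal enzymes and Trem2 differed in the same direction in part. Trem2, a lipid-sensing receptor of lipid-associated macrophages, was below 1 FPKM in 7 of 8 Emr1-low cells, with 160 FPKM in cell 9. In Emr1-high cells Trem2 ran from 0 through 74.9 to 5403 FPKM and was detected in 13 of 17 cells (76.5%, exact Clopper-Pearson 95% interval 50.1 to 93.2%), against 1 of 8 (12.5%, interval 0.316 to 52.7%). The intervals cover the sampling of cells only and overlap, and the mean log2(FPKM + 1) was 1.22 ± 2.48 (SD, n = 8 cells) and 5.70 ± 4.12 (SD, n = 17 cells). Ctsl, a lysosomal cysteine protease, ran from 0.278 through 1.60 to 55.2 FPKM in Emr1-low and from 0.0704 through 134 to 460 FPKM in Emr1-high cells. Lipa, the lysosomal acid lipase that frees cholesterol and fatty acids, had medians of 1.38 and 102 FPKM, with Emr1-low cell 15 at 202 FPKM. The differences were 4.47 for Trem2, 3.71 for Ctsl and 3.30 for Lipa.

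The CD9 lipid-associated macrophage genes had a median difference of 1.05. Of 18 measured, 7 were higher by 2 or more, against 4.51% of all genes, and none was lower. The other 4 were Fabp5 (2.97), a fatty acid carrier, Atp6v0d2, Gpnmb (2.19), a lysosomal glycoprotein, and Plin2 (2.11), which coats lipid droplets. Fabp5 was below 1 FPKM in all 8 Emr1-low cells and detected in 9 of 17 Emr1-high cells. The remaining members were closer to even: Cd9, the tetraspanin that names the population, had medians of 1.45 and 32.2 FPKM (difference 1.79), while Lpl, Lgals3 and Cd36 differed by 0.08, 0.28 and 0.44. Plin2 fell short of 2 without cell 18, at 1.37. The list's median was 0.58 without cell 18. With the Emr1-high cells limited by gene number it was 0.18, and of the 7 genes only Ctsl, at 3.28, was still past 2, with Trem2 at 1.93, Lipa at 1.92, Plin2 at 1.27, Atp6v0d2 at 1.18, Fabp5 at 0.90 and Gpnmb at 0.19.

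Other lysosomal genes were less shifted. Of 30 measured lysosome genes, 3 were higher by 2 or more and none was lower. The 3 were Ctsl, Lipa and Ctsc, a protease that activates other proteases, at 2.10. Higher by 2 or more were also 4.51% of all genes, and 194 of the 2180 genes detected in at least 10 cells. The list's median was 0.43, but 0.23 without cell 29 and -0.68 with the Emr1-high cells limited by gene number. Ctsb and Ctss, abundant cathepsins, differed by 0.10 and 0.39. Of 11 measured Fc receptor and ITAM signalling genes, Trem2, the low-affinity IgG receptor Fcgr3 (2.37) and the inhibitory receptor Cd300a (2.27) were higher by 2 or more. Over all genes the share was 4.51%. None of the 11 was lower, and the median was 1.21. The median was 0.62 without cell 5 and 0.41 when medians over cells were compared. Fcgr3 was detected in every member, with medians of 51.9 and 352 FPKM, and its difference was 0.63 in cells 20 to 36 and 0.95 under the limit on gene number. Its signalling partner Fcer1g, by contrast, had medians of 1432 and 1082 FPKM, a difference of -0.94.

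The promoter of Trem2 is shown because it holds a match to GAGGAAG, a form of the purine-rich site of PU.1, the lineage factor of macrophages. The match lies on the opposite strand as CTTCCTC, marked in capitals, with its first base 41 bases before the start site. The window is chr17:48346151-48346450 of GRCm38.p6, plus strand (RefSeq).
Trem2 promoter: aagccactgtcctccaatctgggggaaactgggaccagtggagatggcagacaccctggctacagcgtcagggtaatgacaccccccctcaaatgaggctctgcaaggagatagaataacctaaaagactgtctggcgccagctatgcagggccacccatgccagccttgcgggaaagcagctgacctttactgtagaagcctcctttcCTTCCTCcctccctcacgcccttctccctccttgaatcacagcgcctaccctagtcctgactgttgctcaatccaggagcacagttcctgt

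Several enzymes of aldehyde and peroxide removal were higher in Emr1-high cells. Akr1a1, an aldehyde reductase, ran from 1.08 through 4.62 to 104 FPKM in Emr1-low and from 1.69 through 354 to 1408 FPKM in Emr1-high cells (difference 4.52), and 11 of 17 Emr1-high cells exceeded every Emr1-low cell. Esd, which completes the glutathione-dependent oxidation of formaldehyde, stayed at or below 1.39 FPKM in Emr1-low cells, and 12 of 17 Emr1-high cells were above that. The difference in Esd was 3.68, and 0.79 when the Emr1-high cells were limited by gene number. Mgst1, a membrane-bound glutathione transferase, differed by 3.36 with 1 Emr1-low cell high, cell 29 at 157 FPKM. Of 13 measured glutathione and aldehyde genes, a list drawn up after the differences had been seen, 5 were higher by 2 or more, none was lower and 5 lay below 0. Its median of 0.40 was 0.08 without cell 11, -0.34 in cells 20 to 36 and -0.21 under the limit on gene number. Of 18 measured antioxidant genes, 6 were higher by 2 or more, against 4.51% of all genes. The 6 were Gstm1 (2.98), Sepp1 (2.72), Cat (2.66), Txn1 (2.65), Gpx4 (2.56) and Mt2 (2.02). None was lower, 7 lay below 0, and the median was 0.61 (0.28 without cell 26). Gstm1 was at -0.43 in cells 20 to 36 alone, 4 Emr1-low against 6 Emr1-high cells.

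The resident macrophage genes parted into opposite directions. Sepp1, a secreted selenium carrier, ran from 19.7 through 98.9 to 2631 FPKM in Emr1-low and from 111 through 1975 to 5458 FPKM in Emr1-high cells. Mrc1, the mannose receptor CD206, had medians of 58.6 and 217 FPKM (difference 2.09), and Igf1, a growth factor, medians of 0.900 and 77.3 FPKM (difference 3.21). For Igf1 the sides overlapped: Emr1-low cell 29, at 502 FPKM, was above every Emr1-high cell, Emr1-low cell 26 stood at 50.9 FPKM, and Emr1-high cells 0, 12 and 33 were below 1 FPKM. Maf, a transcription factor of resident macrophages, was higher by 2.74, with medians of 6.97 and 75.6 FPKM. In cells 20 to 36 alone, all 4 differences were under 2.

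Retnla, Mgl2 and Clec10a, all of the same resident list and all induced by interleukin-4 in macrophages, were lower in Emr1-high cells. Retnla, the secreted protein RELMα, was at 4.05, 10.6, 11.8, 17.4, 647, 1021, 21485 and 25703 FPKM in the 8 Emr1-low cells. In the Emr1-high cells Retnla ran from 1.15 through 6.16 to 20706 FPKM, and a single cell, shallow cell 2, was above 100 FPKM. The mean log2(FPKM + 1) of Retnla was 7.77 ± 5.01 (SD, n = 8 cells) against 3.59 ± 3.05 (SD, n = 17 cells), a difference of -4.18, so the spread within Emr1-low cells exceeded the difference. In cells 0 to 19, 4 Emr1-low and 11 Emr1-high cells, the difference in Retnla was -1.49.

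The lectins Mgl2 and Clec10a bind galactose-type sugars and are close paralogs that can share reads, so their values are uncertain. Mgl2 was at 0.517, 1.47, 2.42, 84.3, 130, 497, 1631 and 2360 FPKM in the Emr1-low cells, and ran from 0 through 1.04 to 271 FPKM in the Emr1-high cells, a difference of -3.82. Clec10a was detected in all 8 Emr1-low cells, from 4.86 to 3369 FPKM with a median of 296 FPKM, and in 9 of 17 Emr1-high cells with a median of 1.62 FPKM. Its difference was -3.64, but 0.22 in cells 20 to 36 alone. Over the 17 measured CD206 resident genes, 3 were higher and 3 lower, and the median was -0.03.

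The promoter of Retnla is shown because it holds TTC and GAA separated by any 4 bases, the palindrome bound by STAT6 downstream of interleukin-4, with its first base 145 bases before the start site and in capitals. The window is chr16:48842359-48842658 of GRCm38.p6, plus strand (RefSeq).
Retnla promoter: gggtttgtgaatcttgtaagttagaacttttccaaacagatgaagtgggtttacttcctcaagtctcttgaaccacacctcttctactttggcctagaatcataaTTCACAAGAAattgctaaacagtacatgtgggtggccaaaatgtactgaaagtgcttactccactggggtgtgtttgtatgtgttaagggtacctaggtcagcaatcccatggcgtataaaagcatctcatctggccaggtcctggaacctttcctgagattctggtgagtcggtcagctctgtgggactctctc

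Over promoter windows of the same length, these motifs were common. Both strands were searched for 3 motifs, none of which contains another, and 3565 of the 4368 genes matched a window. CACGTG was in 7.15% of all windows, 11.8% of those of measured genes, 10.6% of those of the higher genes (161 of 197 with a window) and 7.14% of those of the lower genes (70 of 80). GAGGAAG was in 13.6%, 14.6%, 15.5% and 12.9%, and TTC with GAA 4 bases apart in 6.95%, 5.25%, 6.83% and 2.86%, in the same order. A match describes letters in the window and says nothing of binding.

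**Figure D3:**
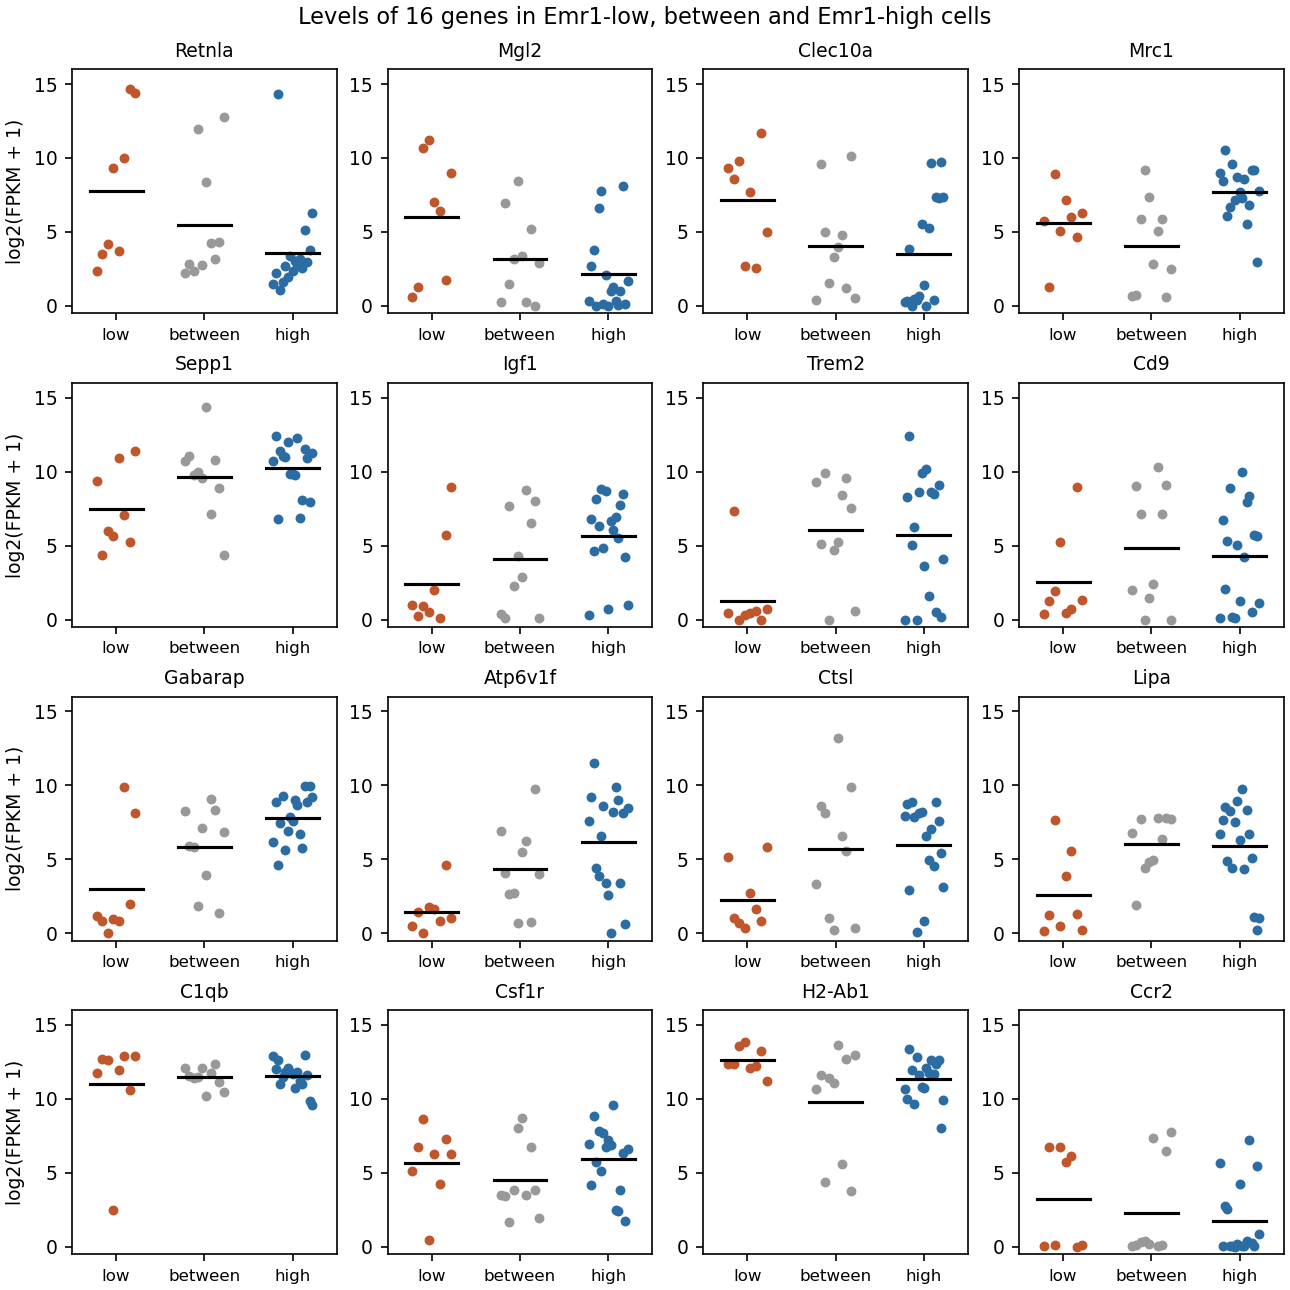
Level of 16 genes in log2(FPKM + 1) for each Emr1-low (n = 8), between (n = 10) and Emr1-high (n = 17) cell; bars mark the mean and points are spread sideways for legibility. Gabarap is at 10 FPKM or more in all 17 Emr1-high cells, Retnla is at 100 FPKM or more in 1 of them, and C1qb is alike on both sides but for 1 Emr1-low cell.

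The genes lower in Emr1-high cells included stress-response and feedback genes. Atf4, the transcription factor of the integrated stress response, was at 0.137, 0.413, 27.3, 110, 455, 490, 1149 and 1166 FPKM in the Emr1-low cells. In the Emr1-high cells Atf4 had a median of 0.463 FPKM and was detected in 6 of 17, with 1762 FPKM in cell 2, and its difference was -3.94 (-1.48 in cells 0 to 19). Nfkbiz and Nfkbia, nuclear and cytosolic members of the IκB family in the NF-κB pathway, differed by -3.28 and -2.12. Ifrd1, a stress-induced regulator of transcription, differed by -3.68. Gadd45b and Ppp1r15a, which respond to DNA damage and to translational arrest, differed by -2.65 and -2.54. Of 21 measured genes of this list, drawn up after the differences had been seen, 6 were lower and 2 higher (Sqstm1 and Tsc22d3, a glucocorticoid-induced inhibitor, at 2.63), with a median of -0.54 (-0.14 without cell 15). Immediate early genes were less one-sided: 1 of 19 was lower (Fosl2, -2.01) and 1 higher (Atf3, 2.03), and Fos, the archetype of genes induced by tissue digestion, differed by -0.53. Fosl2 stood at -0.94 without cell 26 and Atf3 at 3.14 without cell 25.

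Other genes with large negative differences were of mixed function. Arpc1b, a subunit of the actin-branching Arp2/3 complex, ran from 0 through 131 to 3569 FPKM in Emr1-low and from 0.206 through 4.63 to 91.9 FPKM in Emr1-high cells (difference -3.86), and 4 of 8 Emr1-low cells exceeded every Emr1-high cell. Lsp1, a leukocyte actin-binding protein, and the tropomyosin Tpm4 differed by -3.17 and -3.16. Arpc1b was alone past the limit among 27 measured cytoskeleton and adhesion genes, whose median was -0.18 and 0.20 at an equal FPKM sum. Nxf1, the messenger RNA exporter, was at 10 FPKM or more in 4 of 8 Emr1-low and 1 of 17 Emr1-high cells. Ankrd11, a chromatin regulator, was at that level in 4 of 8 and 0 of 17 cells. Zfpl1, a Golgi protein, was detected in 3 of 8 Emr1-low, 0 of 17 Emr1-high and 2 of 10 cells between. Its difference of -3.45 was -2.11 without cell 26 and -0.18 between medians. Rbbp7, a histone chaperone, Krtcap2, a subunit of the oligosaccharyltransferase, and Slc25a3, the mitochondrial phosphate carrier, differed by -3.29, -3.24 and -3.21.

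The remaining genes with the largest positive differences were of mixed function. Rab31, a small GTPase between the Golgi and endosomes, stayed at or below 1.52 FPKM in Emr1-low cells, and 13 of 17 Emr1-high cells were above that, up to 977 FPKM (difference 3.93). Clec4a3, a C-type lectin receptor with close relatives that can share reads, had medians of 0.474 and 194 FPKM (3.66). Sec11c, a catalytic subunit of the signal peptidase, and Ilk, a kinase that links integrins to actin, differed by 3.63 and 3.44.

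The abundant MHC class II genes had lower levels in Emr1-high cells, by less than the limit but for 1 gene. H2-Ab1, the beta chain of MHC class II I-A, ran from 2316 through 5257 to 14938 FPKM in Emr1-low and from 261 through 3350 to 10436 FPKM in Emr1-high cells, a difference of -1.27. Cd74, the invariant chain, stayed between 5622 and 11195 FPKM in Emr1-low cells and ran from 46.0 to 11167 FPKM in Emr1-high cells (difference -1.47). H2-Eb1, an I-E beta chain, was lower by just the limit and was detected in every member. It was lower by 2 or more in only 7 of 17 alternative settings, with -0.52 at the weakest, and in 16 of 25 comparisons with 1 cell left out. Over 10 measured class II genes the median was -0.55, with 1 lower and none higher, and -0.05 without cell 15. In MHC class I, H2-K1 and the immunoproteasome subunit Psmb9 were lower (-2.57 and -2.19) and H2-T23 and the proteasome activator Psme1 higher (2.88 and 2.65). Class I heavy chains resemble each other and can share reads. Psmb9 was at -1.08 without cell 29 and at 0.00 under an alternative setting.

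Of the other myeloid genes, Ccr2, a chemokine receptor through which monocytes enter tissue, belongs to the Ly6C monocyte-like list and was found in 4 of 8 Emr1-low cells (52.8 to 109 FPKM) and in 6 of 17 Emr1-high cells (difference -1.44). Ifitm3, an interferon-induced membrane protein, was lower by 2.42, and Klf4, a zinc finger factor, by 2.52 (1.66 without cell 26). Of the Ly6C monocyte-like list only 3 genes were measured, Ccr2, Ifitm3 and S100a4, and all 3 lay below 0, with a median of -1.91. Il1b was at 289 and 266 FPKM in Emr1-low cells 18 and 9 and at no more than 1.13 FPKM in the other 6, and reached 23.7 FPKM in Emr1-high cells. Its difference of -1.67 was 0.78 in cells 20 to 36. F4/80 has few relatives among these transcripts: of 21 adhesion receptors, Cd97 alone was measured besides Emr1, and it differed by 0.60. Among further lists, Blvra (2.29) and Trf (2.05) of 10 iron and heme genes were higher, and Lgals1 (2.39), Anxa4 (2.28) and S100a11 (2.16) of 16 S100, annexin and galectin genes. Lgals1 was at 1.46 without cell 26. With each cell left out in turn, the lowest values were 1.89 for Blvra, 1.41 for Trf, 1.98 for Anxa4 and 1.66 for S100a11.

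Control genes also differed by this much between the sides. Rpl3, a ribosomal protein, had the second largest difference, 4.76, with a range of 0 to 1020 FPKM in Emr1-low and 15.5 to 2119 FPKM in Emr1-high cells. Over 32 ribosomal protein genes, however, the median was -0.05 (0.23 at an equal FPKM sum). Gapdh, a glycolytic enzyme often used as a reference, was lower by 3.04, with medians of 352 and 22.6 FPKM, but differed by -0.19 in cells 20 to 36. Hprt was higher by 2.14, but stayed at 2 or more in only 7 of 17 alternative settings, with a lowest value of 0.16. Ribosomal protein genes and Gapdh have processed copies that can share reads. In the respiratory chain 5 of 31 genes were higher and 3 lower, against 4.51% and 1.83% of all genes, with a median of 0.17. The higher ones were Cox5b (3.44), Ndufa4 (2.81), Cox8a (2.80), Sdhb (2.49) and Atp5l (2.22). The lower ones were Cox6c (-2.95), Sdha (-2.88) and Atp5g1 (-2.18). Subunits of 1 complex thus lay on both sides, Cox5b and Cox8a higher and Cox6c lower.

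The cells of each side were not uniform. At least 1 of Retnla, Mgl2 and Clec10a was at 100 FPKM or more in 8 of 8 Emr1-low cells, 7 of 17 Emr1-high cells and 6 of 10 cells between. At least 2 of them were at that level in 5, 1 and 1 cells, and all 3 in none. At least 2 of Gabarap, Atp6v1f and Atp6v0b were at 10 FPKM or more in 0 of 8, 15 of 17 and 7 of 10 cells. At least 2 of Trem2, Ctsl and Lipa were at that level in 0 of 8, 14 of 17 and 8 of 10 cells. These combinations were chosen after the values had been seen and restate the differences cell by cell. No Emr1-low cell thus held more than 1 gene of either of the last sets, though 4 and 6 of the 8 held 1.

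**Figure D4:**
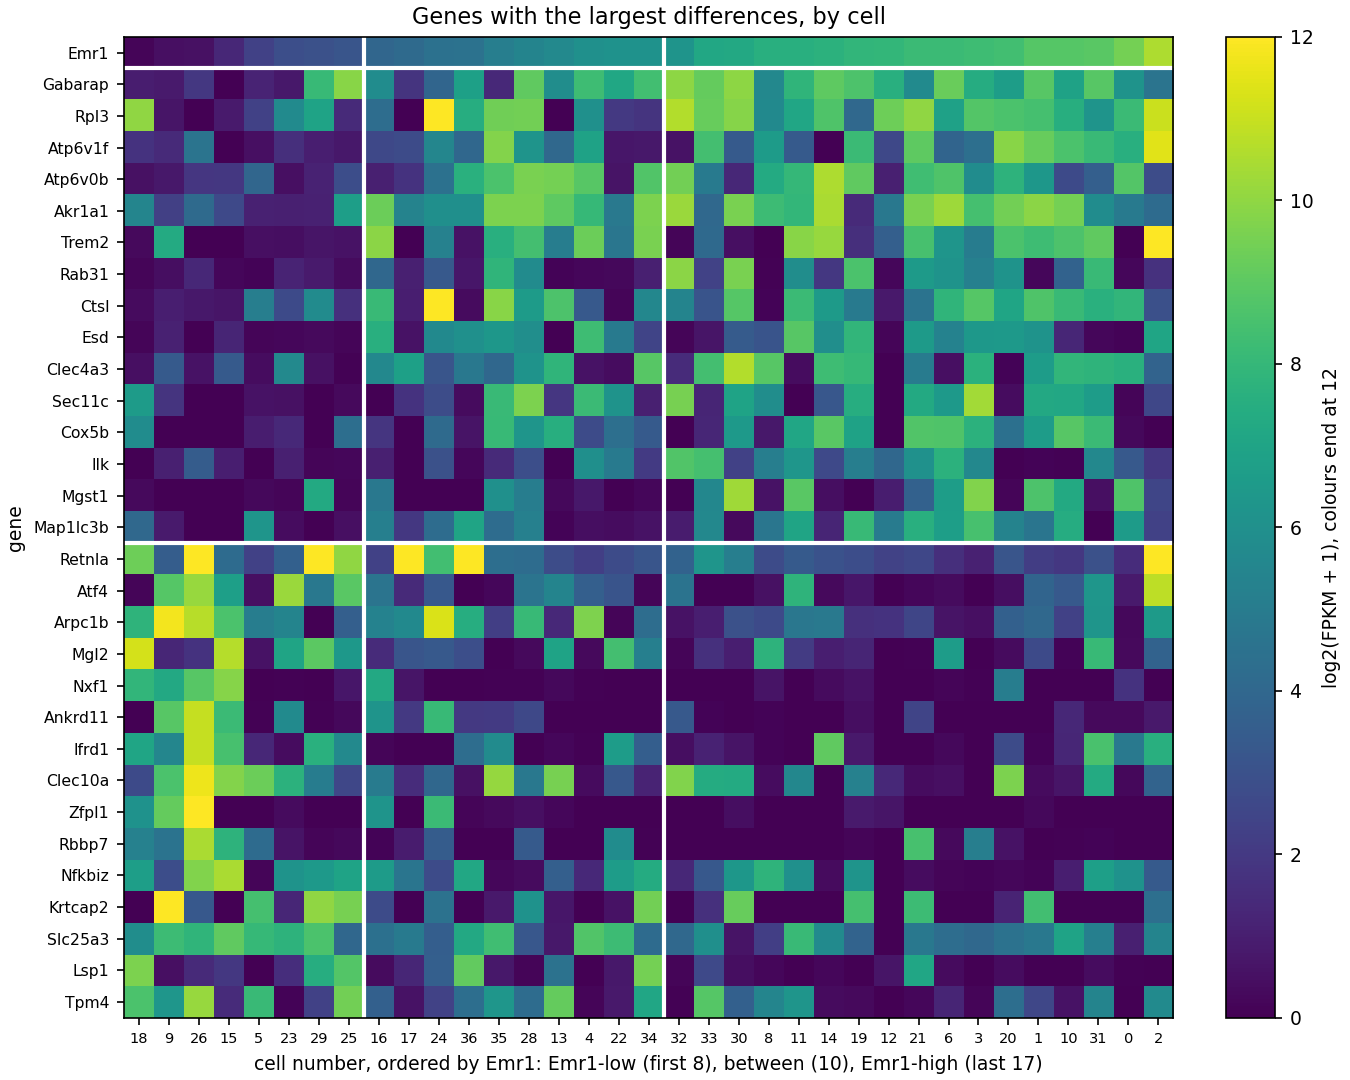
Levels in log2(FPKM + 1) of Emr1 and of the 15 genes with the largest positive and 15 with the largest negative differences (rows) in 35 cells ordered by Emr1 (columns), with white lines between Emr1-low, between and Emr1-high cells; colours end at 12. Every gene but Emr1 has cells of both sides at similar levels, and cells 26 and 2, both shallow, depart from their sides in several rows.

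The 10 cells between the limits took no part in the differences, though they counted in the filter on low values. Their mean lay between those of the sides for 189 of the 277 genes past the limit, 134 of 197 higher and 55 of 80 lower, and for 1578 of all 4368 genes. Genes picked for a wide gap hold a mean in between more easily than other genes, so these counts are a description. Gabarap had a mean log2(FPKM + 1) of 5.85 in these cells and Atp6v1f of 4.33, both in between. Trem2, at 6.04, stood slightly above the Emr1-high mean of 5.70, and Mrc1, at 4.07, below the Emr1-low mean of 5.63. Mean and median pointed the same way for 268 of the 277 genes, and the median difference was 0 for the other 9.

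Over the 35 cells, the genes most like Emr1 in level were Birc3, an inhibitor of apoptosis (Spearman rho 0.63), Topors, a ubiquitin ligase (0.62), Hpgd, which inactivates prostaglandins (0.61), and Atp6v1f (0.58). Fam168a, Rasa4, Rpl28, Rpgrip1, 1110058L19Rik and Orai3 followed at 0.58 to 0.52. Birc3, Topors and Hpgd were below 1 FPKM in all 8 Emr1-low cells and detected in 9, 7 and 8 of 17 Emr1-high cells. Among the most opposed were Fgfr1, a growth factor receptor (-0.57), Sdha, a subunit of succinate dehydrogenase (-0.54) and Lsp1 (-0.53), and among those that followed were Prr14l, Retnla, Sdf2l1, Adam8, Fam104a and Plekha1 at -0.52 to -0.47. These values are picked from 4368 genes over cells that form 1 group in the labels and differ in depth, and are a description.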

How the data were processed

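The series holds 37 single-cell libraries under 1 set of labels. Per the submitters' processing notes, STAR, Cuffnorm and the mouse build mm9 were used (versions and annotation not given in the sources used here). Deposited by the authors was 1 table of FPKM for 23947 genes, of which 12368 were listed at 0 in all 37 cells. The FPKM are not whole multiples of 1 read, so the depth is unknown and no count test was run. A stand-in, the value of 1 fragment, was estimated from ratios of low values (0.005 to 1 FPKM) between cells, with 299 of 666 pairs of cells in the final solution. It spanned 98.4 times over the 35 cells. An exact 0 can be a failed estimate and is called listed at 0.

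Values were taken as log2(FPKM + 1), a scale that understates the change of low genes, and the mean over Emr1-high cells minus that over Emr1-low cells was computed in Python 3.11.15 (numpy 2.4.6, pandas 2.3.3, scipy 1.17.1) for genes at 1 FPKM or more in at least 5 of 35 cells. Differences of 2 or more are counted. The script was tested on simulated data. Named genes were Emr1, the 15 largest differences in each direction, every gene past 2 in a list and up to 4 of its most abundant genes, control and defining markers, and the 10 highest and 10 lowest Spearman rho with Emr1. A few genes that this rule names are not reported here. The members, the 38 lists and the 4 added after the differences were seen were all chosen with earlier results of these data known. The lists held 707 genes, 696 of them in the table. Doublet callers need counts and were not run. Alternatives were other pseudocounts, filters, scalings, Emr1 limits and subsets of cells. Promoters are RefSeq windows of GRCm38.p6, a build other than that of the values, matched by symbol. No window for Emr1 was used here.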

Additional observations from a re-analysis of the deposited data

Results flagged for a closer look

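Of the 30 genes with the largest differences, 5 had 1 cell far from the other Emr1-low cells, its gap to the next cell divided by the range exceeding the 95% limit for 8 values. That limit marks about 1 in 20 groups of values that follow a normal curve. Here the other Emr1-low cells lay at 2.46 FPKM or below, near the floor of the scale, and the genes were picked for their difference. The share of 1 in 20 therefore does not apply, and the flags are a description. All 5 genes were higher in Emr1-high cells, a direction that the choice of genes favours. The cell standing apart was at a level of the Emr1-high cells. Trem2 was at 160 FPKM in cell 9, and the next Emr1-low cell, cell 29, was at 0.600 FPKM. Mgst1 was at 157 FPKM in cell 29, and the next was at 0.221 FPKM. Sec11c was at 95.0 FPKM in cell 18, next to 2.46 FPKM in cell 9. In cell 26, which is shallow, Atp6v1f was at 23.3 FPKM and Ilk at 10.3 FPKM, and the next cells were at 2.39 and 1.08 FPKM. The 5 values fell in 4 different cells.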

How the results depend on the processing

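Of 88 genes past 2 that were followed, 81 kept their direction under all 17 alternatives, 15 of which can move a gene's value, and 14 stayed past 2 under all. With each of the 25 cells left out in turn, 55 stayed past 2. Of the 30 largest differences, 29 kept their direction, 13 stayed past 2 under all alternatives and 30 with each cell left out. Of 30 list medians, 9 kept their sign. Those genes that turned were Clec10a (0.22), Aif1 (-0.72), Gstm1 (-0.43) and Tsc22d3 (-0.61) in cells 20 to 36, Fosl2 (0.35) in cells 0 to 19, and Abcg1 (-0.51) with the Emr1-high cells limited by gene number. Psmb9 did not turn but reached 0.00, and so did not keep its direction either. The cause was not tested. Higher and lower genes numbered 600 and 215 at a pseudocount of 0.1 FPKM and 20 and 19 at 10 FPKM. They numbered 402 and 390 with Emr1-low cells below 1 FPKM (3 cells), and 117 and 50 below 30 FPKM. In cells 0 to 19 they were 383 and 250, in cells 20 to 36 they were 420 and 301, and with cells 7 and 27 kept they were 127 and 102. Median-ratio scaling gave 120 higher genes, an equal FPKM sum 46 lower, medians over cells 128 lower, and the limit on gene number 194 lower. Leaving out 1 cell gave 190 to 236 higher and 76 to 124 lower genes, the last without cell 23. Of the 197 and 80 genes, 142 and 49 remained past 2 without the shallow cells, 92 and 64 under the limit on gene number. That limit and the centring on widely detected genes were chosen after seeing the data. No paired analysis was possible because the labels form 1 group. Both the number of cells and their unknown depth limit the precision.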
